A study of Mus musculus with 15 samples.

Results

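B16-F10 is an established mouse melanoma line, and cells of this line were given either a scrambled siRNA (scr), the control of an Ezh2 knockdown, or DMSO, the vehicle control of the compounds GSK126 and DZNep. The 3 scr and 3 DMSO libraries compared here are 6 of the 15 RNA-seq libraries of the study and were chosen by their labels alone. Beside them stand 3 libraries of cells given an siRNA against Ezh2 (siEzh2) and 3 of cells given 2 µM GSK126, an inhibitor of the EZH2 methyltransferase. The remaining 3 libraries, of cells given 2 µM DZNep, entered the estimate of the spread and the principal components, and no comparison. The scr and DMSO cells share the line and the column RNA extraction with DNA removal, and differ in the siRNA, in the vehicle and in whatever else the handling of the siRNA and compound arms did not share. Those differences cannot be told apart here. The sources used here do not give the siRNA sequence, the transfection reagent, the times or the siRNA dose, and the labels do not say whether replicates were separate cultures, so p-values measure the spread between these libraries only.

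A scrambled siRNA has no intended target and is delivered like the active one, usually in a cationic lipid. Double-stranded RNA in the cytoplasm can be read by the sensors RIG-I and MDA5 and by the kinase PKR, which lead to interferon-stimulated genes and to a block of translation. Cells also sense sterols through SREBP2, which drives the cholesterol genes when membranes lack sterol, and sense stalled translation through ATF4. Melanoma cells such as B16-F10 keep the pigment programme of melanocytes, which is run by MITF and SOX10.

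Library totals ran from 38599777 to 64545747 counts in the 6 libraries. Mitochondrially encoded transcripts took 8.69% ± 0.503 of counts in DMSO and 9.18% ± 1.87 in scr (SD, n = 3). This difference gave p = 0.7 in a two-sided exact permutation test, in which 3 against 3 cannot go below 0.1. Within scr, replicate 1 stood apart at 7.06%, with replicates 2 and 3 at 10.6% and 9.86%. On the second principal component, which held 10.2% of the variance, the scr libraries lay from 22.97 to 29.2 and the other 12 libraries from −21.2 to 7.64. Of the defining markers of other cell types, 13 of 18 blood and endothelial markers and 9 of 12 epithelial markers, and 4 of 12 fibroblast markers, had at most 3 counts in each of the 6 libraries. The listed blood and endothelial markers summed to 4.89 to 5.42 CPM (counts scaled to library size by the trimmed mean of M-values, TMM) in DMSO and 5.72 to 6.38 CPM in scr. Vwf, an endothelial gene, was not on that list. It stood at 7.39, 5.17 and 5.42 CPM in DMSO and at 2.2, 2.31 and 1.65 CPM in scr. Fibroblast markers summed to 196 to 234 CPM in DMSO and 200 to 202 CPM in scr, with 2 of the 12, Thy1 and Dpt, at 0 counts.

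The scr and DMSO libraries differed in many genes by small amounts. Of 15152 genes tested with edgeR's quasi-likelihood test, 3920 (25.9%) passed a Benjamini-Hochberg adjusted p of 0.05, which is what called means throughout. Of these, 1854 (12.2% of genes tested) were higher and 2066 (13.6%) were lower in scr. With scaling by library totals alone, the higher share of the calls went from 47.3% to 58.5%. The median called gene differed 1.26-fold, 78.2% of the calls were under 1.5-fold, and 203 genes (1.34%) were at least 2-fold higher and 113 (0.746%) at least 2-fold lower. With a required fold of more than 1.2, 926 genes passed. The biological coefficient of variation between libraries of a group was 6.4%. Over all genes tested, all 3 scr libraries lay above all DMSO libraries in 18.4% and below them in 19%. Ezh2, the target of the other siRNA, stood at 204, 209 and 208 CPM in the DMSO libraries and 215, 227 and 215 CPM in scr, a log2 difference of 0.08 ± 0.05 (SE, edgeR adjusted p = 0.221). It was between 37.6 and 41.3 CPM in the siEzh2 libraries.

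**Figure D1:**
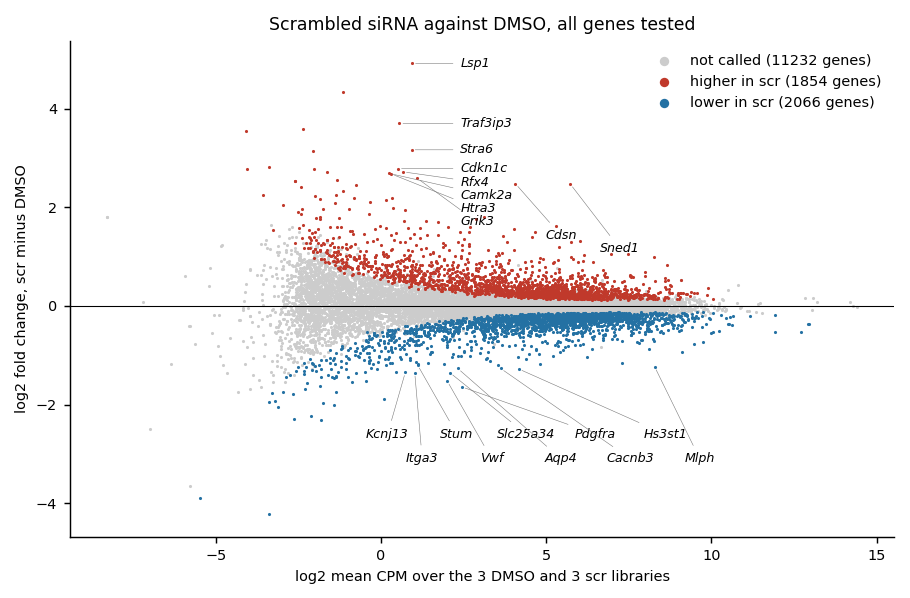
Each point is one gene, with the log2 of its mean CPM in the 3 DMSO and 3 scr libraries on the x axis and its log2 fold change (scr minus DMSO) on the y axis. The 1854 genes higher in scr are red, the 2066 lower are blue and those not called are grey, with the 20 genes named for size labelled; 4 genes at 0 in all 6 libraries are not drawn. Most called genes lie close to the zero line, and the largest increases reach further from it than the largest decreases among the labelled genes.

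The largest increases were in genes that were almost silent in DMSO. Lsp1, a leukocyte F-actin-binding protein (chromosome 7, 142460809 to 142494867, GRCm38, plus strand), was at 0.0478, 0.14 and 0.154 CPM in DMSO (2, 6 and 10 counts) and at 3.18, 3.81 and 4.17 CPM in scr. That was a 30.3-fold higher level (log2 4.92 ± 0.26, adjusted p = 7.77e-11), while the siEzh2 libraries lay between 0.206 and 0.279 CPM, near DMSO. Traf3ip3, a TRAF3-interacting protein, rose 13-fold from 0.206 ± 0.0856 to 2.74 ± 0.424 CPM (SD, n = 3). Stra6, the cell surface receptor for retinol-binding protein, was 8.97-fold higher at 3.35, 3.67 and 3.27 CPM against 0.383, 0.349 and 0.4 CPM. Then came Cdkn1c, an imprinted inhibitor of cyclin-dependent kinases (6.88-fold), the transcription factor Rfx4 (6.58-fold), the calmodulin-dependent kinase Camk2a (6.44-fold), the secreted protease Htra3 (6.4-fold) and the kainate receptor subunit Grik3 (6.02-fold). In each of these genes all 3 scr libraries lay above all 3 DMSO libraries, which was a condition for naming them.

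A further 2 of the 10 were well expressed. Sned1, an extracellular matrix protein (chromosome 1, 93235841 to 93301065), was at 19.7, 16.3 and 12.9 CPM in DMSO and 94.3, 84 and 91.2 CPM in scr, 5.55-fold higher (log2 2.47 ± 0.12, adjusted p = 1.92e-09). Cdsn, which encodes corneodesmosin of cornified epithelium (chromosome 17, 35552128 to 35557180), was at 5.55, 4.78 and 5.02 CPM and at 26.9, 30.4 and 28.1 CPM, 5.57-fold higher (2.48 ± 0.12, adjusted p = 8.27e-11). Neither gene was called against DMSO with the other siRNA: Sned1 was between 13.3 and 18.2 CPM and Cdsn between 4.71 and 5.34 CPM in the siEzh2 libraries. Cdsn was called higher with GSK126 against DMSO, at 7.62, 7.72 and 11.7 CPM (log2 0.82, edgeR adjusted p = 0.000267). Grik3 was called higher against DMSO with both siEzh2 (0.86) and GSK126 (0.82). The rest of the 10 were called with neither. Mterf4 overlaps Sned1 on the opposite strand, Gm44732 does so for Cdkn1c and A130010J15Rik for Traf3ip3, so the share of their reads is uncertain.

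The largest decreases were smaller. Pdgfra, a receptor for platelet-derived growth factor (chromosome 5, 75152292 to 75198215), fell from 8.1, 8.9 and 7.78 CPM to 2.27, 2.88 and 2.81 CPM, 3.12-fold (log2 −1.64 ± 0.12, adjusted p = 6.31e-09). Vwf, von Willebrand factor, was 2.87-fold lower at 2.2, 2.31 and 1.65 CPM against 7.39, 5.17 and 5.42 CPM. The siEzh2 libraries lay on the other side of DMSO for Vwf, at 10.8, 11.9 and 12.1 CPM. Mlph, the melanophilin that links melanosomes to myosin Va (chromosome 1, 90915085 to 90951142), had the smallest p of the 10, with 454, 441 and 413 CPM in DMSO and 186, 192 and 180 CPM in scr, 2.34-fold lower (−1.23 ± 0.05, adjusted p = 9.36e-12). The others were the mitochondrial carrier Slc25a34 (2.56-fold), the integrin chain Itga3 (2.55-fold), the potassium channel Kcnj13 (2.53-fold), the heparan sulfate sulfotransferase Hs3st1 (2.42-fold), the calcium channel subunit Cacnb3 and the water channel Aqp4 (both 2.41-fold), and Stum (2.29-fold). With siEzh2 against the same DMSO libraries, Stum (log2 −1.16), Pdgfra (−0.69), Slc25a34 (−0.59) and Cacnb3 (−0.28) were called lower too. Vwf was called higher there (0.96), and the remaining genes of the 10 were not called. Kcnj13 lies within Gigyf2 on the opposite strand and its reads are uncertain.

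**Figure D2:**
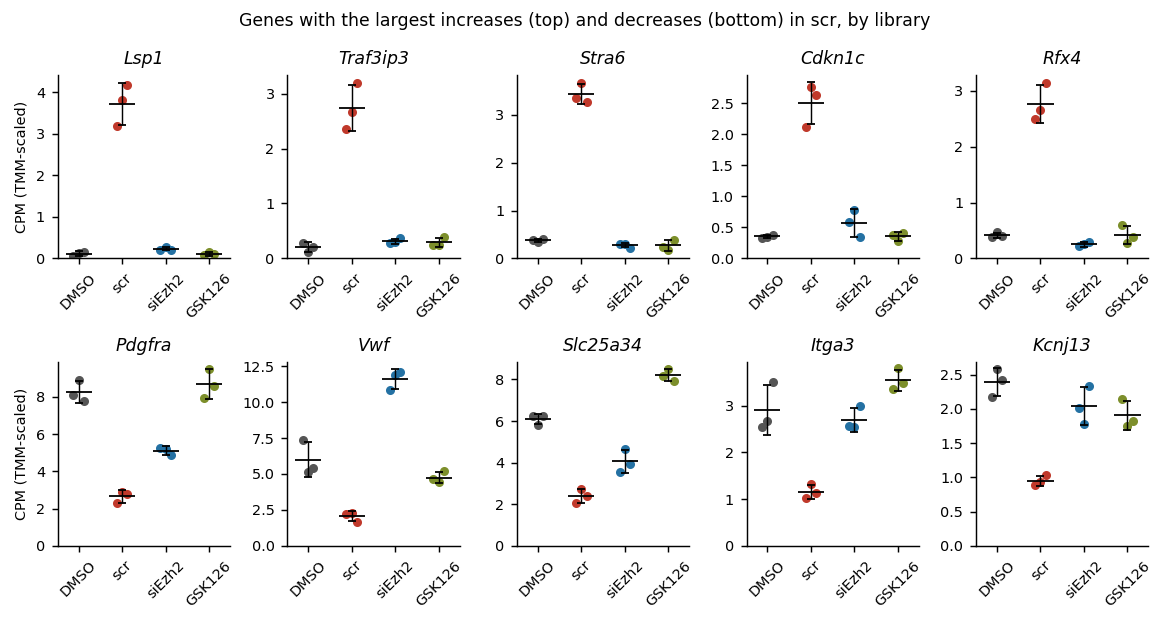
CPM (TMM-scaled) of the 5 genes with the largest increases (top row) and the 5 with the largest decreases (bottom row) in the DMSO, scr, siEzh2 and GSK126 libraries, 3 points per group, with the mean and SD as bars. In every panel the scr points are apart from the DMSO points, which the choice of genes required, and in the top row the siEzh2 and GSK126 points lie near DMSO.

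Counts of called genes in lists of known roles are read here against the 12.2% higher and 13.6% lower of all genes tested. The group lists were drawn up with earlier results of these data known, and members beyond the 2 of smallest p in each list are named to lay out the pathway and were chosen after their values were seen. The lists with the largest shares of lower genes were cholesterol synthesis, MHC class I presentation, interferon-stimulated genes and pigmentation, and those with the largest shares of higher genes were ATF4 targets and hypoxia and glycolysis.

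**Figure D3:**
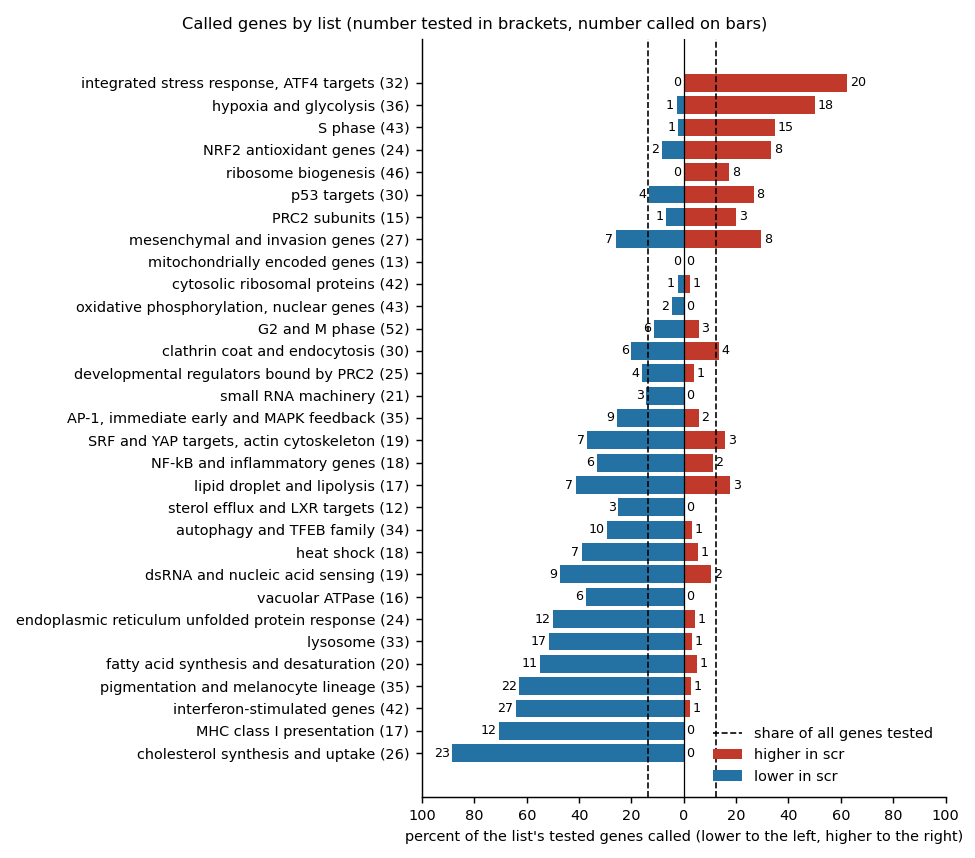
For each list of at least 12 tested genes, the bars give the percent of its tested genes called higher (right, red) or lower (left, blue) in scr, with the number called on the bar, the number tested in brackets, and dashed lines at 12.2% and 13.6%, the shares of all genes tested. Cholesterol synthesis reaches furthest to the left with 23 of 26, and ATF4 targets furthest to the right with 20 of 32.

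Cholesterol genes were lower along the whole pathway. Of 26 tested genes of sterol synthesis and uptake, 23 were lower in scr, with a list median of −0.59 against 0.0036 for all genes tested. At the start of the pathway, Hmgcs1, which makes HMG-CoA (chromosome 13, 119690379 to 119708260), was at 375, 390 and 376 CPM in DMSO and 210, 247 and 240 CPM in scr, 1.64-fold lower (log2 −0.71 ± 0.07, adjusted p = 2.89e-07). Mvd, which makes isopentenyl pyrophosphate, had the smallest p of the list: 30.3, 32.7 and 36.4 CPM against 17.5, 19.3 and 17.8 CPM, 1.82-fold lower (−0.87 ± 0.07, adjusted p = 1.45e-08). All scr libraries lay below all DMSO libraries for both of these enzymes.

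Further down the pathway, the isomerase Idi1 (log2 −0.81) and the squalene epoxidase Sqle (−0.58) were lower, as were the lanosterol synthase Lss (−0.60) and the lanosterol demethylase Cyp51 (−0.87). Msmo1, the sterol C4-methyl oxidase, went from 251, 273 and 287 CPM to 161, 160 and 167 CPM (−0.74 ± 0.06, adjusted p = 1.45e-08). The late reductase Dhcr7 (−0.66) was lower too. So were the sterol sensor partner Insig1 (−0.53) and Srebf2 itself (−0.26 ± 0.05, adjusted p = 0.000613), the gene of SREBP2. Pmvk and Mylip were among the 3 tested members that were not called. In siEzh2 against DMSO, which uses the same DMSO libraries, 13 of the 26 were lower (7.76% of all genes were), with a median of −0.24: Hmgcs1 stood at −0.36 (adjusted p = 0.0018) and Srebf2 at −0.01 (adjusted p = 0.92).

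Fatty acid genes followed in part. Of 20 tested, 11 were lower and 1 was higher. Mid1ip1, an activator of acetyl-CoA carboxylase, went from 73.6, 70.6 and 87.2 CPM to 49.2, 47.5 and 46.3 CPM (log2 −0.70 ± 0.08, adjusted p = 2.23e-06). The desaturases Fads2 (−0.39) and Scd1 (−0.39) and the citrate lyase Acly (−0.26) were lower, whereas Srebf1, the gene of the fatty acid SREBP, was at 69.7, 66.6 and 72.9 CPM in DMSO and 76.9, 74.9 and 76.4 CPM in scr (0.12, adjusted p = 0.0937, and 0.16, adjusted p = 0.0417, without DMSO replicate 3). Acacb, the mitochondrial carboxylase isoform, was the higher one (0.31 ± 0.08, not called without scr replicate 1). Among 17 genes of lipid droplets and lipolysis, 7 were lower and 3 higher. Cpt1a, which admits long-chain fatty acids to mitochondria, was 2.04-fold lower at 48.9, 49.8 and 50.3 CPM against 102, 106 and 96.6 CPM (−1.03 ± 0.06, adjusted p = 1.48e-10). The thioesterases Acot1 (−0.77) and Acot2 (0.42) are near-identical neighbours, so their split of reads is uncertain. Of 12 sterol efflux genes, Pltp (−0.52), Apoe (−0.28) and Lipa (−0.20) were lower, and 1 of these was called without scr replicate 1; the calls of Apoe and Lipa were lost in 3 and 2 of the 13 other settings.

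The upstream sequence of Hmgcs1 is shown because it held the sterol element, the site that SREBP proteins bind. The 250 bases before the RefSeq start (GRCm38.p6, chr13:119690101-119690350, plus strand) carry the letters TCACNCCAC, in capitals:
Hmgcs1: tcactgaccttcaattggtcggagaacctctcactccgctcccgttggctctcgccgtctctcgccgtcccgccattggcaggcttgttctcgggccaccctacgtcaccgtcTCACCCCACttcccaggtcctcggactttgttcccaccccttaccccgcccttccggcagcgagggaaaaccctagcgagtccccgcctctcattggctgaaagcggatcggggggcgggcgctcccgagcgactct
Of the 26 tested cholesterol genes, 18 had an entry in the promoter table, and Hmgcs1 was the only 1 of these with these letters on either strand; 1.22% of all 27025 genes with an entry held them. The match is a description of the letters in this window.

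**Figure D4:**
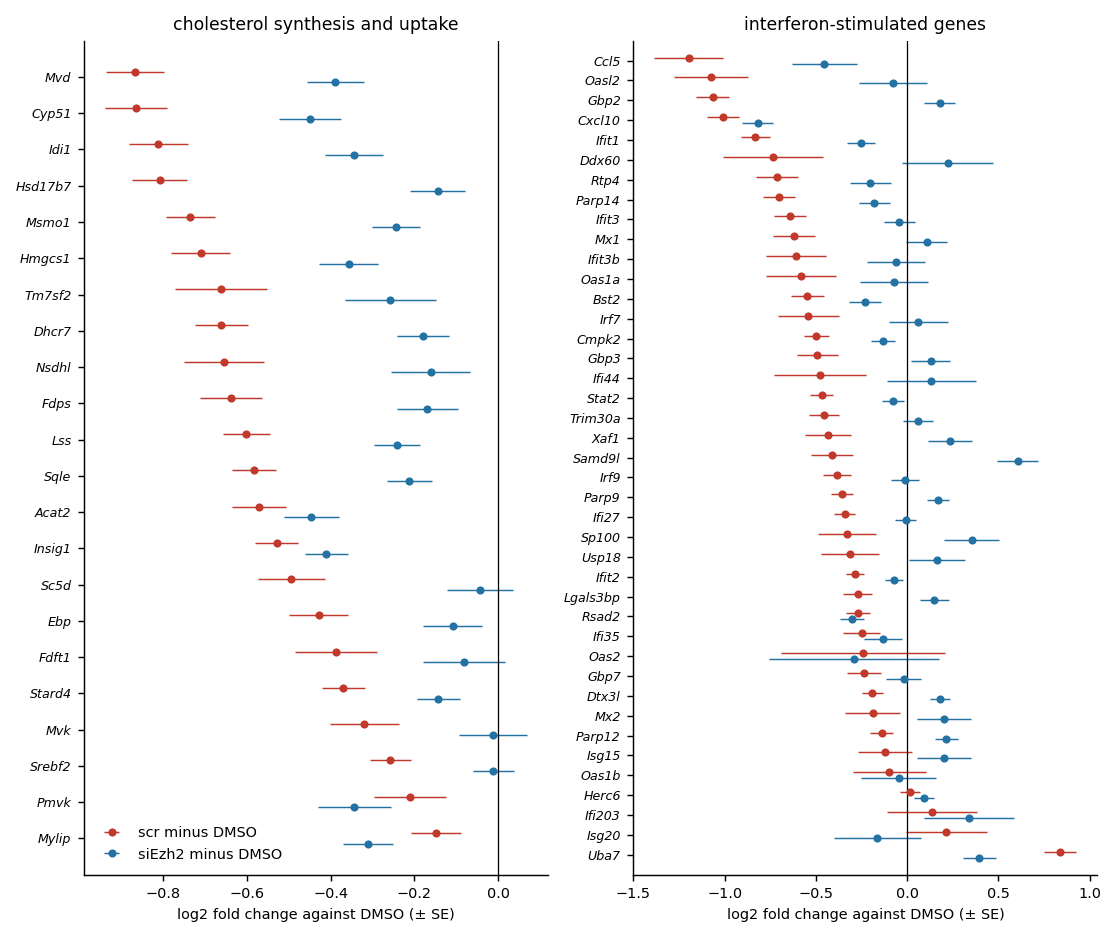
Log2 fold change against DMSO (± SE) of 22 tested genes of cholesterol synthesis and uptake (left) and 41 of the interferon-stimulated list (right), for scr (red) and siEzh2 (blue), which share the 3 DMSO libraries. All 22 cholesterol genes shown lie left of zero for scr, and in the interferon panel Uba7 is the gene furthest to the right at 0.84.

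Interferon-stimulated genes were lower in scr, not higher. Of 42 tested, 27 were lower and 1 higher, with a median of −0.40. Gbp2, an interferon-induced GTPase (chromosome 3, 142620602 to 142638008), was at 13.3, 12.4 and 11.3 CPM in DMSO and 5.76, 6.53 and 5.3 CPM in scr, 2.09-fold lower (log2 −1.07 ± 0.09, adjusted p = 3.99e-08). Cxcl10, a T cell chemokine (chromosome 5, 92346638 to 92348889, minus strand), went from 7.94, 9.71 and 8.24 CPM to 4.18, 4.19 and 4.48 CPM, 2.01-fold lower (−1.01 ± 0.09, adjusted p = 4.01e-08). Both genes had their 3 scr libraries below every DMSO library. With siEzh2 they parted: Gbp2 was at 14.1, 13.9 and 13.8 CPM (0.18, adjusted p = 0.17 against DMSO) and Cxcl10 at 4.95, 4.74 and 4.96 CPM (−0.82, adjusted p = 2.4e-06). Art3 overlaps Cxcl10 on the opposite strand, so its reads are uncertain.

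Factors that carry the interferon signal were lower by less, such as Stat2 (log2 −0.47), Irf9 (−0.38) and Irf7 (−0.54, adjusted p = 0.0214, a call lost in 4 of the 13 other settings). Ifit1, which binds foreign RNA ends, went from 8.44, 8.29 and 8.59 CPM to 4.61, 4.81 and 4.84 CPM (−0.83 ± 0.08), and Ifit3 (−0.64), the antiviral GTPase Mx1 (−0.62) and the tethering protein Bst2 (−0.55) were also lower. The chemokine Ccl5 (−1.20) and Oasl2 (−1.07) were lower at under 2 CPM. Isg15, the ubiquitin-like modifier, was at 2.22, 2.75 and 2.39 CPM in DMSO and 2.18, 2.18 and 2.42 CPM in scr (−0.12, adjusted p = 0.599). Its activating enzyme Uba7 was the one higher member, at 5.86, 5.22 and 6.3 CPM against 10.8, 10.2 and 10.2 CPM, 1.79-fold. The Ifit, Oas and Gbp genes are families of close copies, and their reads could be split between members. Against DMSO, 3 of the 42 were lower and 4 higher with siEzh2, near the shares of all genes (7.76% and 6.41%).

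Sensors of double-stranded RNA were lower as well. Of 19 genes of nucleic acid sensing, 9 were lower and 2 higher. Ddx58, which encodes RIG-I, was at 25.8, 28.1 and 24.6 CPM in DMSO and 17.2, 17.1 and 17.5 CPM in scr, 1.51-fold lower (log2 −0.60 ± 0.07, adjusted p = 3.79e-06). Ifih1, which encodes MDA5, went from 15.7, 15.7 and 15.3 CPM to 11.4, 11.8 and 12 CPM (−0.41 ± 0.06), and Eif2ak2, the gene of PKR, was at −0.35. Mavs, the adaptor of RIG-I and MDA5, was at −0.17 (adjusted p = 0.0294), and this call was lost in 4 of the 13 other settings. The higher genes were Tmem173, which encodes STING, at 34, 35.1 and 33.8 CPM against 46.1, 43.4 and 45.5 CPM (0.39 ± 0.07), and the kinase Ikbke (0.26). Among 21 genes of the small RNA machinery, Ago1 (−0.21), Dicer1 (−0.23) and Ago4 (−0.94, under 1.1 CPM) were lower, 14.3% of the list, near the 13.6% of all genes. With no count filter 5 of the list were lower, and the Ago4 call was lost in 4 of the 13 other settings.

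Genes of antigen presentation by MHC class I were lower too. Of 17 tested genes, 12 were lower, with a median of −0.31. Tapbp, the tapasin that loads peptides, was at 43.2, 47.4 and 55.1 CPM in DMSO and 28.6, 26.7 and 29.2 CPM in scr, 1.73-fold lower (log2 −0.79 ± 0.08, adjusted p = 9.65e-07). The heavy chains H2-K1 (−0.39) and H2-D1 (−0.31) and the light chain B2m (−0.34 ± 0.08, adjusted p = 0.00273) were lower, as were the chaperone Calr (−0.56), the immunoproteasome subunit Psmb8 (−0.91, under 1.4 CPM) and the transporter Tap1 (−0.35, adjusted p = 0.0317, a call lost in 5 of the 13 other settings). H2 genes are close copies of each other, and Zbtb22 overlaps Tapbp, so their reads are uncertain. Of 18 NF-kB and inflammatory genes, 6 were lower and 2 higher: Nfkbie (−0.63) and Relb (−0.52) among the lower, Tnfaip2 (0.62 ± 0.06, adjusted p = 1.28e-07) and Bcl3 (1.30) the higher.

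Upstream sequences of Gbp2 and Cxcl10 are shown because each held the interferon-stimulated response element, searched as TTTC and TTTC with any 2 bases between them. They are the 250 bases before the RefSeq start (GRCm38.p6; Gbp2, chr3:142620413-142620662, plus strand; Cxcl10, chr5:92348890-92349139, minus strand), with the element in capitals on whichever strand it lay:
Gbp2: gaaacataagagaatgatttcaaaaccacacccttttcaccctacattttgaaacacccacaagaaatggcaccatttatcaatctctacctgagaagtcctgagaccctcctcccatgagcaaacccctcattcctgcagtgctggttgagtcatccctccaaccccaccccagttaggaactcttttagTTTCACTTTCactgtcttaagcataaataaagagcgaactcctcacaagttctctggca
Cxcl10: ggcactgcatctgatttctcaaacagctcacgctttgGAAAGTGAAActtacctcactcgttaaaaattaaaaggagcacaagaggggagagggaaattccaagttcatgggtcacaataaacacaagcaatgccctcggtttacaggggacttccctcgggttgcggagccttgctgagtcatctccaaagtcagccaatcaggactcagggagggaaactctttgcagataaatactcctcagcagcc
The element began 59 bases before the RefSeq start of Gbp2 and 213 bases before that of Cxcl10. For Gbp2 the RefSeq start lies downstream of the GENCODE start given above, 142620602, so the window and the element reach into the gene as given there. Of 31 tested interferon-stimulated genes with an entry, 15 (48.4%) held the element, and so did 3.46% of all 27025 genes with an entry. Of the 21 called genes with an entry, 11 held it. These shares describe the letters in the windows of a list of known interferon genes, and a link to the calls was not tested.

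ATF4 targets were higher in scr while chaperones of the endoplasmic reticulum were lower. Of 32 tested ATF4 targets, 20 were higher, with a median of 0.26. Trib3, a pseudokinase that damps the response (chromosome 2, 152337422 to 152344032), was at 91.8, 70.5 and 82.8 CPM in DMSO and 179, 176 and 156 CPM in scr, 2.08-fold higher (log2 1.06 ± 0.09, adjusted p = 2.89e-07). Ddit3, which encodes CHOP, went from 52.5, 43.4 and 45.4 CPM to 103, 95.5 and 89.3 CPM, 2.04-fold higher (1.03 ± 0.09, adjusted p = 9.31e-08). Ppp1r15a, which encodes GADD34 and restores translation, was 1.92-fold higher, at 75.2, 79.3 and 67.9 CPM against 46.4, 34.4 and 35.1 CPM. The 3 scr libraries were above every DMSO library for each of these genes. Mars overlaps Ddit3 and Tulp2 overlaps Ppp1r15a on the opposite strand, so the reads of both are uncertain.

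Nupr1, a stress-induced chromatin protein (log2 0.62), the cystine transporter Slc7a11 (0.55), the factor Cebpb (0.51, a call lost in 1 of the 13 other settings) and the mitochondrial carboxykinase Pck2 (0.28) were also higher. Atf4 itself was at 684, 627 and 651 CPM in DMSO and 744, 722 and 700 CPM in scr (0.14, adjusted p = 0.117), and the asparagine synthetase Asns at 0.08 (adjusted p = 0.407). With siEzh2 against DMSO, 3 of the 32 were higher (6.41% of all genes were), with a median of 0.07. With GSK126 against DMSO, 8 of the 32 were higher (7.15% of all genes were), with a median of 0.08. Of 24 genes of the unfolded protein response, 12 were lower and 1 higher in scr, with a median of −0.24. Hspa5, the main chaperone BiP, went from 601, 667 and 630 CPM to 410, 464 and 476 CPM (−0.49 ± 0.06, adjusted p = 8.98e-06). The calreticulin gene Calr went from 1138, 1302 and 1203 CPM to 750, 834 and 893 CPM (−0.56), and the response factor Xbp1 was at −0.55, whereas Sel1l, of the degradation complex, was higher (0.25). Against the same DMSO libraries, 7 of these 24 genes were lower and 2 higher with siEzh2 (7.76% and 6.41% of all genes). With GSK126, 7 were lower and 0 higher (5.54% and 7.15%). Hspa5 was called lower with siEzh2 (−0.36) and with GSK126 (−0.25). Of 18 heat shock genes, 7 were lower in scr, among them the co-chaperone Bag3 (−0.28) and Hspb1 (−1.44, under 1 CPM). Stip1 was higher (0.20, a call lost in 5 of the 13 other settings). The lower heat shock count in scr was 3 without scr replicate 1 and 4 without DMSO replicate 2. With siEzh2 against DMSO, 7 of the 18 were lower and 0 higher, and with GSK126, 2 were lower and 1 higher.

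Upstream sequences of Nupr1 and Pck2 are shown for the CEBP-ATF response element TGATGNAA, the composite site of ATF4 and its partners. They are again the 250 bases before the RefSeq start (GRCm38.p6; Nupr1, chr7:126625471-126625720, minus strand; Pck2, chr14:55540016-55540265, plus strand), with the element in capitals:
Nupr1: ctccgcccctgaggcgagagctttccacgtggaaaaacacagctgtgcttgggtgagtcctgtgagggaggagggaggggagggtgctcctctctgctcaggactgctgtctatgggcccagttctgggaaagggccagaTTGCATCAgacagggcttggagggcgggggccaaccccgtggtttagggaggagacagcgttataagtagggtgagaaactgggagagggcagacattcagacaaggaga
Pck2: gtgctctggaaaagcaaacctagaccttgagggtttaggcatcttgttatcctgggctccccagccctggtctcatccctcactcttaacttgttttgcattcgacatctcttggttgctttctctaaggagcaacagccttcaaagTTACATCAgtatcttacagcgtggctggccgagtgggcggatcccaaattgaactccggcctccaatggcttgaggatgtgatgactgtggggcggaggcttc
Both carried it on the reverse strand, beginning 110 bases before the start of Nupr1 and 103 bases before that of Pck2. Of 26 tested ATF4 targets with an entry, 9 (34.6%) held it, against 3.91% of all genes with an entry, and 6 of the 15 called genes with an entry did. These shares describe the letters in the windows, and a link to the calls was not tested.

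Pigment cell genes were lower in scr, from transport proteins to enzymes. Of 35 tested, 22 were lower and 1 higher, with a median of −0.28. Mlph, described above, led the list, and Trpm1, a melanocyte cation channel (chromosome 7, 64153835 to 64269775), was next at 67.6, 59.1 and 66.5 CPM in DMSO and 40.4, 41.1 and 38.4 CPM in scr, 1.61-fold lower (log2 −0.69 ± 0.08, adjusted p = 1.22e-06). The melanosome matrix protein gene Pmel went from 4371, 4256 and 5060 CPM to 3259, 3259 and 3007 CPM (−0.52). Tyrp1 and Dct, enzymes of eumelanin synthesis, went from 9095, 8934 and 9126 CPM to 6873, 7161 and 6884 CPM (−0.38) and from 8943, 9350 and 8025 CPM to 6508, 7090 and 6708 CPM (−0.37). Their groups did not overlap. Tyr, the rate-limiting tyrosinase, was the one higher member, at 79.6, 67.5 and 66.3 CPM against 86.3, 91 and 86.4 CPM (0.31 ± 0.06, adjusted p = 0.000665).

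The factor Mitf was at −0.31 (adjusted p = 0.000451), the melanosome channel Oca2 at −0.47 and the antigen Mlana at −0.53. Sox10 was at 972, 995 and 903 CPM in DMSO and 726, 865 and 939 CPM in scr, and these overlapped (−0.18, adjusted p = 0.0923). Sox10 was called lower without scr replicate 3 (−0.27, adjusted p = 0.0164) and with no count filter (−0.19, adjusted p = 0.0104). The summed level of the 37 listed pigment genes was 39050 to 41140 CPM in DMSO and 29391 to 30944 CPM in scr; in bulk RNA, fewer cells expressing a gene and less RNA per cell cannot be told apart. With siEzh2 against DMSO, 5 of the 35 were lower and 9 higher (7.76% and 6.41% of all genes), and Trpm1 was higher (79.9, 84.6 and 79.2 CPM). Cdk2 and Dgka overlap Pmel on the opposite strand, and Gm44722 lies opposite Trpm1, so these reads are uncertain.

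Upstream sequences of Trpm1 and Tyrp1 are shown because they held the M-box letters TCATGTG, a site of MITF. They are the 250 bases before the RefSeq start (GRCm38.p6; Trpm1, chr7:64153585-64153834, and Tyrp1, chr4:80833963-80834212, both plus strand):
Trpm1: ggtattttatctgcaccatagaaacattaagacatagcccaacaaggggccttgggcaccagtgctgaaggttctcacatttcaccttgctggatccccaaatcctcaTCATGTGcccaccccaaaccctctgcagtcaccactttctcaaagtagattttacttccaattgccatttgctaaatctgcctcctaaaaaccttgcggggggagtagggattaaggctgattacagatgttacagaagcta
Tyrp1: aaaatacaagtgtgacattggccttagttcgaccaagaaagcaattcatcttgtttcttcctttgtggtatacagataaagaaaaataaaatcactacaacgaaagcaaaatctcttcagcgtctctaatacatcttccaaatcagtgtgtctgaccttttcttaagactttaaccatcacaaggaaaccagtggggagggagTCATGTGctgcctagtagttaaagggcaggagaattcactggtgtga
The M-box, in capitals, began 142 bases before the start of Trpm1 and 47 bases before that of Tyrp1. Of 28 tested pigment genes with an entry, 8 (28.6%) held it, against 3.72% of all genes with an entry. Of the 19 called genes with an entry 7 did, among them Tyr, the higher member. These shares describe the letters in the windows, and a link to the calls was not tested.

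Lysosomal genes were lower by small amounts. Of 33 tested, 17 were lower and 1 higher, with a median of −0.15. Laptm4b, a lysosomal membrane protein, was at 125.9, 123 and 147 CPM in DMSO and 93.6, 98.8 and 91.6 CPM in scr (log2 −0.48 ± 0.06, adjusted p = 4.37e-06), and the acid ceramidase Asah1 went from 216, 208 and 210 CPM to 162, 167 and 167 CPM (−0.36). The cysteine protease Ctsf was at −0.61, and the sulfatase Galns was the higher one (0.29). Of 16 subunits of the vacuolar proton pump, 6 were lower, led by Atp6v1b2 (−0.35) and Atp6v0a1 (−0.29). Of 34 autophagy genes, 10 were lower, among them Atg12, a ubiquitin-like conjugator (72.4, 80.1 and 69.2 CPM against 41.7, 47.4 and 39.6 CPM, −0.78 ± 0.08, adjusted p = 2.89e-07) and the nutrient GTPase Rragd (−0.34), while Atg3, a conjugating enzyme, was higher (0.24). Of 30 genes of clathrin coats and endocytosis, 6 were lower and 4 higher, with Cavin1 (−0.35) and Dab2 (0.29) as examples.

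Hypoxia and glycolysis genes were higher in scr. Of 36 tested, 18 were higher and 1 lower in scr, with a median of 0.20. Eno2, a neuronal enolase, was at 9.35, 8.62 and 9.13 CPM in DMSO and 15.2, 14.9 and 17.8 CPM in scr, 1.76-fold higher (log2 0.82 ± 0.08, adjusted p = 2.89e-07). The growth factor Vegfa went from 92.3, 86.2 and 96.8 CPM to 137, 138 and 138 CPM (0.58 ± 0.07), and the prolyl hydroxylase P4ha2 (0.76), the carbonic anhydrase Car9 (0.63) and the glucose transporter Slc2a1 (0.46) were higher. Ndrg1, also induced by low oxygen, had the smallest p and was lower, at 224, 227 and 246 CPM against 158, 158 and 160 CPM (−0.55 ± 0.05, adjusted p = 1.04e-07). With siEzh2 against DMSO, 26 of the 36 were higher (6.41% of all genes were), with a median of 0.40, and Slc2a1 was at 77.6, 71.8 and 82 CPM. With GSK126 against DMSO, 14 of the 36 were higher and 3 lower (7.15% and 5.54% of all genes), so each of these groups had higher members against the same DMSO libraries. In the siEzh2 against GSK126 comparison, which shares no library with scr and DMSO, 26 of the 36 were higher and 2 lower (9.03% and 11.3% of all genes).

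Antioxidant genes under NRF2 were called in both directions, 8 of 24 higher and 2 lower. Osgin1, a growth inhibitor induced by oxidative stress, was at 17.7, 19.4 and 20.6 CPM in DMSO and 34.3, 34.6 and 38.9 CPM in scr, 1.86-fold higher (log2 0.90 ± 0.08, adjusted p = 6.93e-08). Gclc, of glutathione synthesis (0.33), and Hmox1, heme oxygenase (0.28), were higher and Taldo1, of the pentose pathway, lower (−0.28). Of 30 p53 targets, 8 were higher and 4 lower: the inhibitor Cdkn1a (0.23), Mdm2 (0.18), the kinase Plk2 (0.50) and Cd82 (0.35) among the former, and Sesn1 (−0.43) and Perp (−0.59) among the latter. The calls of Cdkn1a, Mdm2 and Perp were lost in 1, 2 and 4 of the 13 other settings, and without scr replicate 2 the higher count was 5.

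Genes of S phase were higher by small amounts, 15 of 43 with 1 lower and a median of 0.09. Cdc45, a part of the replicative helicase, was at 42.2, 42.4 and 42.3 CPM in DMSO and 54.7, 56.2 and 52.4 CPM in scr (log2 0.36 ± 0.05, adjusted p = 2.98e-05). The helicase subunit Mcm5 (0.31) and the licensing factor Cdt1 (0.38) were higher, whereas the clamp Pcna was at −0.10 (adjusted p = 0.271) and Rrm1 at −0.14 (adjusted p = 0.0468, lost in 8 of the 13 other settings). The count of higher S phase genes was 8 without scr replicate 1, 8 without DMSO replicate 1, 9 without scr replicate 3 and 9 without DMSO replicate 2. Of 52 genes of G2 and mitosis, 6 were lower and 3 higher, led by Cdc20 (−0.43), the activator of the anaphase complex, and without DMSO replicate 3 the lower count was 12. Of 46 ribosome biogenesis genes, 8 were higher, led by Nop56 (0.34) and Mybbp1a (0.25), and 3 or 4 without scr replicate 1, scr replicate 3, DMSO replicate 1 or DMSO replicate 2. Of 42 ribosomal protein genes, 1 was higher and 1 lower, and of 43 nuclear genes of oxidative phosphorylation 2 were lower, shares under those of all genes. The call of the higher ribosomal protein gene, Rpl30, was lost in 6 of the 13 other settings. The lower one, Rpl5, was not called without scr replicate 3 or DMSO replicate 3, and 1 oxidative phosphorylation gene was lower without scr replicate 2, scr replicate 3 or DMSO replicate 3.

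Immediate early genes were mixed. Of 35 tested, 9 were lower and 2 higher. Jun went from 25.2, 25 and 25.3 CPM to 13.1, 13.7 and 14.5 CPM, 1.83-fold lower (log2 −0.87 ± 0.06, adjusted p = 2.28e-09), with 28.9, 31.4 and 28.7 CPM in siEzh2. Its partner Fos was at 2.7, 2.98 and 2.97 CPM and 1.29, 1.31 and 1.36 CPM (−1.13), the zinc finger factor Klf6 was at −0.53, and Klf4 was higher (0.40). Junos lies opposite Jun, so its reads are uncertain. Among 19 targets of SRF and YAP, 7 were lower, among them the matrix protein Ccn1 (−0.83), and 3 higher, and the lower count was 4 without scr replicate 1. Axl, a receptor kinase that is on both this and the mesenchymal list, was at 17.3, 17.6 and 17 CPM in DMSO and 31.2, 28.9 and 30.8 CPM in scr (0.81 ± 0.07, adjusted p = 4.94e-08). Of 27 mesenchymal and invasion genes, 8 were higher and 7 lower, such as Timp3 (0.58), Ngfr (0.90) and Zeb1 (1.00, under 1.1 CPM, not called without scr replicate 2) against Vim (−0.51), Itgav (−0.55) and Tgfb2 (−0.48).

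Subunits of the polycomb complex PRC2, to which EZH2 belongs, were called at 26.7%, near the 25.9% of all genes tested. Of 15, 3 were higher and 1 lower: Phf19, a chromatin-binding accessory subunit, went from 13.2, 13.6 and 14.1 CPM to 21.1, 20.6 and 22 CPM (log2 0.64 ± 0.07, adjusted p = 4.63e-07), Mtf2 was at 0.25, Suz12 at 0.15 (adjusted p = 0.0264) and Rbbp7 at −0.15 (adjusted p = 0.0376). The Suz12 call was lost in 5 of the 13 other settings and that of Rbbp7 in 7. Of 25 tested developmental regulators that PRC2 binds, 4 were lower, among them Sox9 (−0.60), Irx3 (−0.41) and Irx5 (−0.28), and Hoxa7 (0.29) was higher. The calls of Irx5 and Hoxa7 were each lost in 3 of the 13 other settings, and without scr replicate 1, 2 were lower. Markers of other cells gave 3 calls: the fibroblast genes Col1a2 (1.60, at 10.3, 9.36 and 9.21 CPM against 3.51, 2.84 and 3.19 CPM) and Pdgfra (above), and the epithelial gene Cdh1 (−0.36, adjusted p = 0.0356, a call lost in 6 of the 13 other settings). Vwf (above) was not on these lists. The part of other cells in these differences was not tested.

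A second siRNA to compound comparison can be made without any of these 6 libraries, between siEzh2 and GSK126. One of those groups had Ezh2 knocked down and the other had its enzyme inhibited, so that comparison also holds any difference between losing the protein and inhibiting it. It called 3084 genes (20.4%), 1368 higher and 1716 lower with siEzh2. Of the 1854 genes higher in scr than in DMSO, 260 (14.02%) were higher and 258 (13.9%) lower in siEzh2 than in GSK126, against 9.03% and 11.3% of all genes, and the median was 0.03. Of the 2066 genes lower in scr, 412 (19.9%) were lower and 295 (14.3%) higher, with a median of −0.04. The 260 genes are 19.01% of all genes higher in siEzh2 than in GSK126, and the 412 are 24.0% of all that were lower. The difference of the 2 differences, chosen after the data were seen, was itself called in 3132 genes (20.7%).

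By list, the second comparison went the other way for some groups and the same way for others. Of the 35 pigment genes 24 were higher and 2 lower with siEzh2 than with GSK126, of the 33 lysosomal genes 16 were higher and 1 lower, and of the 16 pump subunits 11 were higher. In GSK126 against DMSO, 17 of the pigment genes and 11 of the lysosomal genes were lower (5.54% of all genes were). Of the 42 interferon-stimulated genes 9 were higher and 4 lower, and of the 32 ATF4 targets 4 were higher and 4 lower. Cholesterol genes kept the direction, 16 of 26 lower with a median of −0.23, and so did fatty acid genes, 11 of 20 lower and 1 higher. S phase genes did not, with 10 of 43 lower and 1 higher. The difference of the 2 differences was called for 17 cholesterol genes, 27 interferon-stimulated genes, 18 ATF4 targets and 26 pigment genes.

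**Figure D5:**
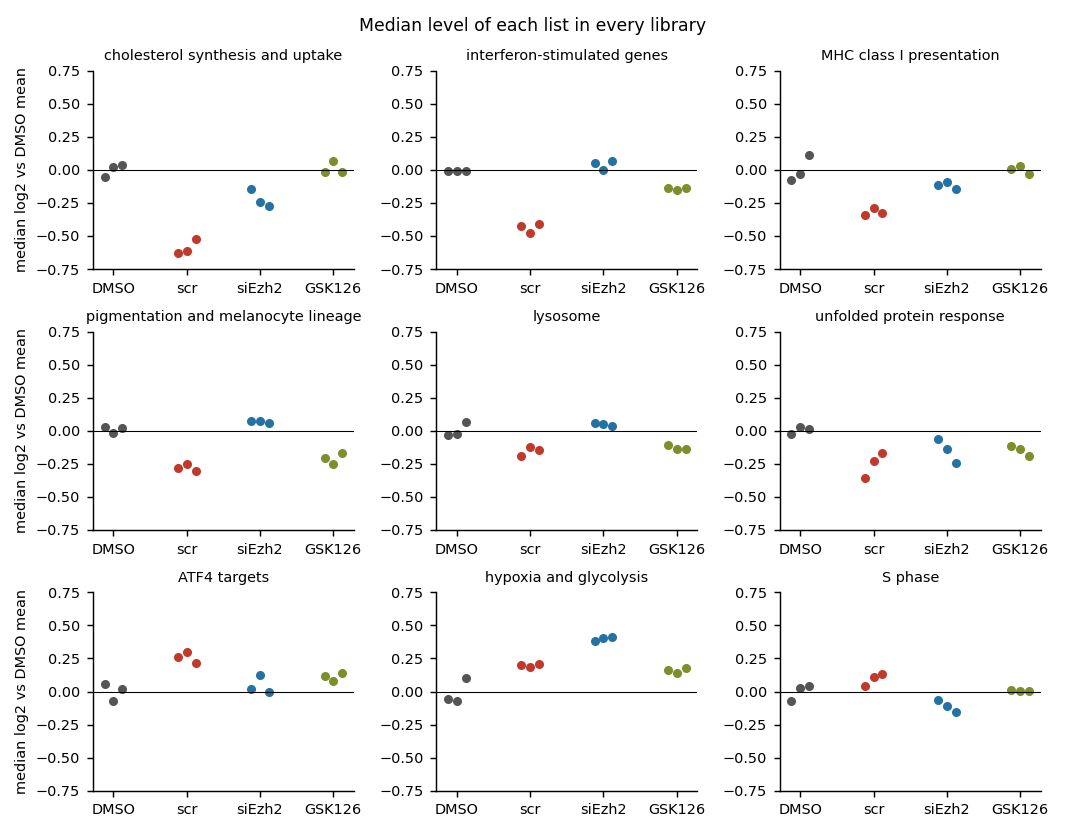
The median over a list's tested genes of the log2 level relative to the mean of the 3 DMSO libraries, for each DMSO, scr, siEzh2 and GSK126 library. The scr points lie apart from the DMSO points in most panels, the siEzh2 points lie near DMSO for the interferon and pigment lists, and for hypoxia and glycolysis the siEzh2 points are above those of scr.

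Over the genes called between scr and DMSO, each siEzh2 library had a median nearer to DMSO than to scr. Over the 1854 genes higher in scr, the median log2 level relative to the DMSO mean was 0.36 to 0.37 in the scr libraries, 0.09 to 0.13 in siEzh2 and 0.08 to 0.09 in GSK126. Over the 2066 lower genes it was −0.32 to −0.30 in scr, −0.09 to −0.05 in siEzh2 and −0.06 to −0.04 in GSK126. These genes were chosen on the scr and DMSO values, so the scr figures and the nearness of siEzh2 to DMSO are a description. The library names carry an S number, which was 4 to 6 for scr, 7 to 9 for siEzh2, 13 to 15 for DMSO, 16 and 17 for GSK126 replicates 2 and 3, and 3 for GSK126 replicate 1. Over the higher and lower genes, GSK126 replicate 1 differed from the mean of its 2 fellows by a median of −0.0003 and −0.0068. These are medians for 1 library, which can hide shifts of single genes, and an effect of the library number was not tested. The sources used here do not say what the S number stands for, and it cannot be told apart from the scr and DMSO groups.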

How the data were processed

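Total RNA of B16-F10 cells was sequenced in 15 libraries, 3 per group. The deposited values are whole-number read counts per gene with no normalization, per the labels; the submitters' processing notes name STAR, featureCounts and the build GRCm38. The sources used here give neither versions nor annotation nor strand setting, so reads of overlapping, antisense or near-identical genes are uncertain. Of 46078 identifiers, 45229 matched GENCODE M21, and the other 849 held 0.0588% of counts. Counts were scaled by TMM and filtered with filterByExpr (15152 genes), and fitted in edgeR 4.0.16 (R 4.3.3) with one term per group over all 15 libraries, a robust quasi-likelihood test and Benjamini-Hochberg adjustment at 0.05; SE is the log2 fold change over the root of F. Totals of 33299524 to 64545747 counts set the precision of low genes. Same-numbered scr and DMSO libraries correlated at 0.156, 0.0136 and 0.045 in their deviations, so no pairing was used. Replicates differed by more than sampling noise (chi-square per degree of freedom 8.46 to 38.1).

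Named genes were Ezh2, the 10 largest increases and decreases among called genes with non-overlapping groups and a mean of at least 2 CPM in the higher group (predicted, RIKEN and clone names left out), and the 2 members of smallest p per list with the first in the other direction. The members and the 34 lists were chosen with earlier results of these data known. Promoters came from RefSeq (GRCm38.p6), 250 bases before each start, searched on both strands. Alternatives were other scalings, filters, DESeq2 1.42.0, fits of only the compared groups, a replicate block, a minimum fold and leaving out libraries. Values of a few list members are not reported here, though list counts and medians include them.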

Additional observations from a re-analysis of the deposited data

Results flagged for a closer look

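The scr minus DMSO difference and the siEzh2 minus GSK126 difference, which share no library, were set against each other in the same edgeR fit, and they differed in 3132 genes at an adjusted p of 0.05. Ezh2 itself was among them, with a log2 difference of 2.52; it is the target of the other siRNA, and its siEzh2 libraries lay between 37.6 and 41.3 CPM. Of the 10 genes with the largest increases in scr, all 10 had a higher difference in the scr comparison: Lsp1 (3.92), Traf3ip3 (3.59), Stra6 (3.14), Cdkn1c (2.11), Rfx4 (3.39), Camk2a (2.33), Htra3 (2.13), Grik3 (2.56), Cdsn (3.32) and Sned1 (2.70) on the log2 scale. Of the 10 with the largest decreases, 8 were lower in the scr comparison than in the other: Pdgfra (−0.88), Vwf (−2.81), Itga3 (−0.96), Kcnj13 (−1.45), Hs3st1 (−1.67), Cacnb3 (−1.19), Aqp4 (−1.15) and Mlph (−1.44). The difference was not called for the other two, Slc25a34 (−0.34, adjusted p = 0.17) and Stum (−0.11, adjusted p = 0.78), which were also lower in siEzh2 than in GSK126 (−1.01 and −1.08). The genes of the largest increases and decreases were chosen by their scr minus DMSO difference, which is part of the measure given here. Their directions were largely set by that choice and are a description. With 3 libraries in each group, no test for a single outlying library was made.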

How the results depend on the processing

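The count of called genes, 3920, was 3917 with RLE scaling, 3829 with library totals alone, 3833 in DESeq2, 4037 with no count filter, 3719 with a mean of at least 1 CPM, 2916 in a fit of only the compared groups, and 3030 to 3853 when each scr or DMSO library was left out. It went to 926 (470 higher, 456 lower) with a minimum fold of 1.2. With a mean of at least 1 CPM, the genes at least 2-fold higher went from 203 to 75 and those at least 2-fold lower from 113 to 47, since that filter tests fewer genes of low level. The numbers do not pair the samples, and with the replicate block the count was 3904, with 3779 of the same genes, and 3093 against 3084 for siEzh2 against GSK126. By list, library totals alone gave 4 lower SRF and YAP targets in place of 7. No count filter gave 4 higher ribosome biogenesis genes in place of 8 and 5 lower small RNA genes in place of 3. The fit of only the compared groups gave 11 lower lysosomal genes, 3 lower endocytosis genes, 4 lower heat shock genes, 9 higher S phase genes and 3 higher ribosome biogenesis genes. When 1 library was left out, the ranges were 3 to 7 for lower heat shock genes, 8 to 17 for higher S phase genes, 4 to 6 for lower SRF and YAP targets, 3 to 10 for higher ribosome biogenesis genes, 5 to 10 for higher p53 targets and 5 to 12 for lower G2 and M phase genes. Without GSK126 replicate 1, the share of scr-higher genes that were higher in siEzh2 than in GSK126 was 9.98% in place of 14.02%, and that of scr-lower genes that were lower was 17.04% in place of 19.9%. Without GSK126 replicate 1, siEzh2 against GSK126 called 2403 genes in place of 3084. The 9.03% and 11.3% of all genes belong to the full fit, so the 9.98% and 17.04% cannot be read against them. The causes of these moves were not tested. The mitochondrial share differed by 0.484 percentage points, and by −0.234 to 1.54 when 1 library was left out. Single genes were followed in 13 settings, which leave out the minimum fold of 1.2 and the fit without mitochondrially encoded genes. Of 171 called genes among those named, 143 kept their call and direction in every one of these settings that tested them. A setting whose filter dropped a gene, such as a mean of at least 1 CPM for genes of low level, was passed over for that gene. None of the 171 changed sign where tested. Depth limits the genes of low level, such as Lsp1 with 2 to 10 counts in DMSO.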
